A study of Homo sapiens with 2 samples.

Results

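The nuclear genes of the mitochondrial respiratory chain and of ATP synthase were examined in NB4 cells after CRNDE knockdown. They were taken from the deposited gene list by name (NDUFA, NDUFB, NDUFC, NDUFS and NDUFV genes, SDHA to SDHD, UQCR genes, CYC1, CYCS, COX4 to COX8 genes and ATP5 genes), leaving out 3 pseudogenes, which gave 81 of the 11619 listed genes. NB4 is a human cell line of acute promyelocytic leukemia with the PML/RARα fusion. The series holds 2 RNA sequencing libraries from this line, 1 with a lentiviral shRNA against the long noncoding RNA CRNDE (sh-CRNDE) and 1 with a non-targeting shRNA (sh-Control), each harvested on day 3 after infection. Infected cells were marked by the fluorescent protein ZsGreen1, and the sources used here do not say which CRNDE shRNA these cells had. With 1 library per group, no difference below has a replicate check, and neither a p-value nor an error can be given.

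The respiratory chain sits in the inner mitochondrial membrane. Complex I takes electrons from NADH and complex II takes them from succinate, ubiquinone carries them to complex III, cytochrome c carries them on to complex IV, and complex IV passes them to oxygen. The proton gradient built on the way drives complex V, the ATP synthase. Most subunits are encoded in the nucleus and imported, while the mitochondrial genome encodes the hydrophobic cores of complexes I, III, IV and V, so that the nuclear and mitochondrial products have to be assembled together.

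Levels are given as deposited, in FPKM (sequenced fragments divided by transcript length and by the number of mapped fragments of the library), a scale that is per length and so allows genes to be compared. The change of a gene is its log2(FPKM + 1) in sh-CRNDE minus that in sh-Control, and a gene is called past 1.5-fold where the change is beyond 0.585 in either direction. A change on this scale understates the fold of genes near or below 1 FPKM. The 2 libraries had median levels of 3.95 FPKM (sh-Control) and 3.89 FPKM (sh-CRNDE) over all listed genes. CRNDE itself was at 5.92 FPKM in sh-Control against 1.85 FPKM in sh-CRNDE, a change of -1.28. GAPDH was at 942 and 785 FPKM, a change of -0.26. Of 8 marker genes of NB4-type promyelocytes 7 were listed, and their summed level was 1423 FPKM in sh-Control against 833 FPKM in sh-CRNDE. Most of that sum was MPO (1135 and 738 FPKM), and of the 7 only CEBPE was higher in sh-CRNDE, with 0.748 and 8.75 FPKM. Of the markers of T cells (1 of 3 listed), B cells (2 of 3 listed), erythroid cells (0 of 3 listed) and epithelial or packaging cells (1 of 4 listed), none exceeded 4.82 FPKM in either library, and that level was EPCAM in sh-Control. In bulk RNA a lower level can come from fewer cells of a type or from less RNA per cell, which cannot be told apart here.

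The respiratory chain genes did not move as a block. Of the 81 genes, 6 were past 1.5-fold higher and 8 were past 1.5-fold lower in sh-CRNDE, together 17.3%. Over all listed genes 8.38% were past it higher, 8.83% lower and 17.2% in either direction, so on this scale the share among the respiratory chain genes was near that of the whole list. With a pseudocount of 0.1 the shares were 18.5% and 28.4%, and with 0.01 they were 18.5% and 29.96%. With the values rescaled to a common sum without mitochondrially encoded, ribosomal and small RNA genes they were 17.3% and 27.3%. There the share of the respiratory chain genes was below that of the whole list. However, a smaller pseudocount adds calls mainly among low-level genes. The rescaling raised all values before 1 was added, which acts likewise. Shares for genes of like level were not computed in these settings. Among genes at 1 FPKM or more in both libraries, with the pseudocount of 1, the shares were 16.5% and 14.1%. The median change of the 81 genes was 0.01, against -0.01 for all listed genes, with 41 above 0 and 40 below. Respiratory chain genes are expressed at higher levels than most, and 66 of them averaged 10 FPKM or more. Of these 66, 5 were past 1.5-fold higher and 6 lower (16.7%), against 8.19%, 8.22% and 16.4% of the 3004 listed genes with such a mean. The changes were also packed more closely around 0 than the list as a whole, with 48 of 81 genes (59.3%) inside the interval from -0.26 to 0.23 that holds the middle 50% of all genes. Only 3 of the 81, or 3.70%, were past 2-fold (COX8A, UQCR10 and UQCRFS1), against 6.66% of all listed genes. The whole list holds more low-level genes, and the 2-fold share of genes of like level was not computed. For means of 10 FPKM or more, the middle 50% of changes spanned -0.18 to 0.19 among the 66 genes. Among the 3004 listed genes it spanned -0.22 to 0.26, so there the difference was smaller.

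**Figure D1:**
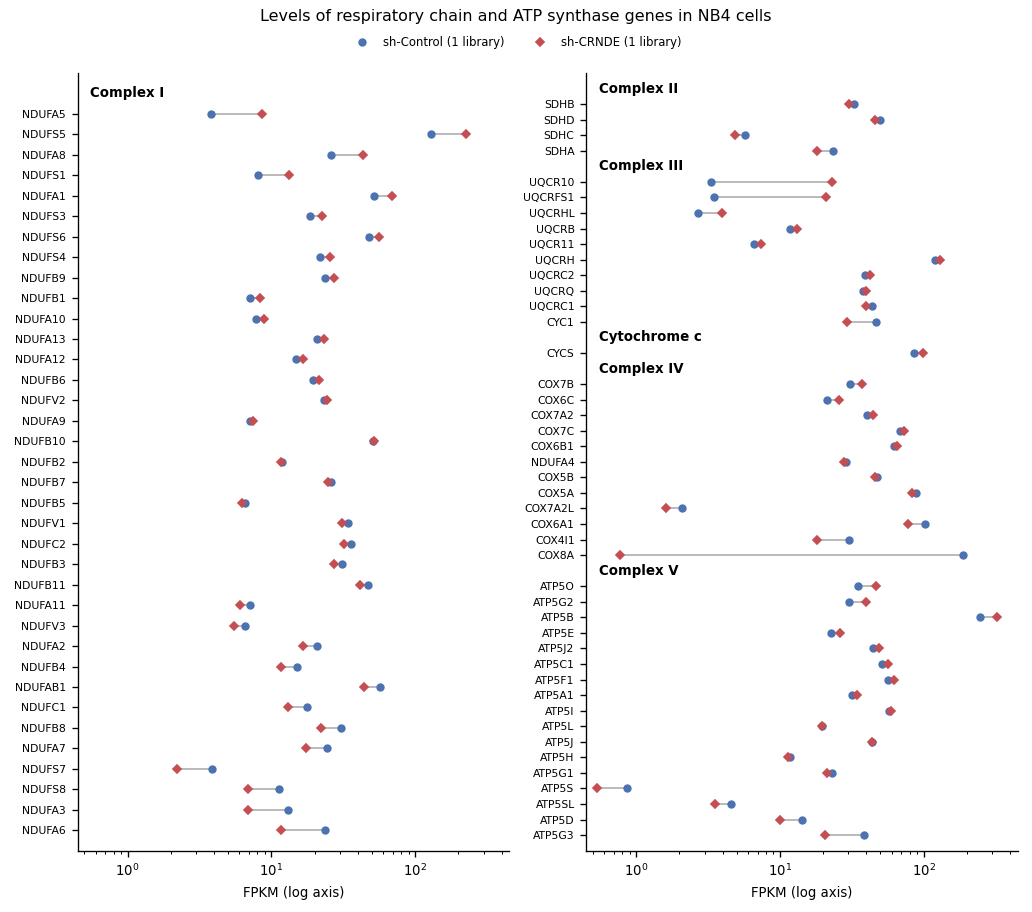
Levels of 80 of the 81 genes in both libraries, grouped by complex, with FPKM on a log axis, a circle for sh-Control and a diamond for sh-CRNDE (1 library each). Most pairs of symbols nearly touch, while COX8A runs from 186.6 to 0.769 FPKM and UQCR10 and UQCRFS1 run from below 4 FPKM to above 20 FPKM.

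The genes with the 3 largest changes belong to complexes III and IV. Their promoters are shown because these 3 genes carry the largest differences between the libraries. Each spans 250 bases before to 50 bases after the transcription start in RefSeq on GRCh38.p14. The only exact match to the words described further below is in capitals. COX8A lies at chr11:63974370-63974669 on the plus strand, UQCR10 at chr22:29767119-29767418 on the plus strand and UQCRFS1 at chr19:29213102-29213401 on the minus strand.
COX8A: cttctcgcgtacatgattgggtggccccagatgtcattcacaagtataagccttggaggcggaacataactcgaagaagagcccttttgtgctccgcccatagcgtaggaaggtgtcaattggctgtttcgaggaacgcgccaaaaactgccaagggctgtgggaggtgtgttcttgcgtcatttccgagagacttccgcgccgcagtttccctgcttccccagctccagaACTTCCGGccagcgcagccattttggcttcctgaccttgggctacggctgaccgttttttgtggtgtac
UQCR10: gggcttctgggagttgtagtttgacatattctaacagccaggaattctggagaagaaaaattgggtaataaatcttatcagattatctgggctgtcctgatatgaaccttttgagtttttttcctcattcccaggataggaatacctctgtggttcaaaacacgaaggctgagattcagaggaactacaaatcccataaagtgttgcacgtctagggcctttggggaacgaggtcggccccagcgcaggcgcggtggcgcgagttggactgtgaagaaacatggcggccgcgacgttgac
UQCRFS1: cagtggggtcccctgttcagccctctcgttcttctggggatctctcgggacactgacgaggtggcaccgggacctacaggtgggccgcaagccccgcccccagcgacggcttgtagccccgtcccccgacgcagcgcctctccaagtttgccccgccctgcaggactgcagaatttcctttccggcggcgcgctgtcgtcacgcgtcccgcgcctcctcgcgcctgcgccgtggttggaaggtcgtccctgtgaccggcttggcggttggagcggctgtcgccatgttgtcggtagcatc

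COX8A, which encodes a small structural subunit of complex IV, was at 186.6 FPKM in sh-Control against 0.769 FPKM in sh-CRNDE. In sh-Control it was the most abundant of the complex IV genes, and in sh-CRNDE it was the least abundant. For COX8A, UQCR10 and UQCRFS1 the deposited values do not tell a difference in RNA from an estimate that failed in 1 library, and each of them has 2 exons. The COX8A change of -6.73 was the largest fall of all 11619 listed genes on this scale. COX8A (chromosome 11, 63974620 to 63976543, plus strand) is a gene of 2 exons with no pseudogene named after it in the annotation, and 28.5% of the words of 50 bases in its transcript also occur in another annotated gene. The other genes of complex IV gave a quieter picture. COX4I1, the ubiquitous form of the subunit through which ATP inhibits the enzyme, was at 30.3 FPKM in sh-Control against 18.1 FPKM in sh-CRNDE, a change of -0.71. The remaining 10 genes were not past 1.5-fold, with changes from -0.38 for COX6A1 (102 and 77.8 FPKM) to 0.27 for COX7B (30.6 and 37.2 FPKM). COX6A1 shares 47.1% of its words of 50 bases with other annotated genes. COX5A and COX5B, which form part of the matrix-facing side of the enzyme, were at 88.5 and 47.2 FPKM in sh-Control and at 83.4 and 45.5 FPKM in sh-CRNDE. COX6B1, which faces the intermembrane space, was at 61.9 and 64.8 FPKM. COX6C was at 21.4 and 25.8 FPKM, COX7A2 at 40.5 and 44.1 FPKM and COX7C at 68.3 and 73.3 FPKM. NDUFA4, named as a complex I gene but found as a subunit of complex IV, was at 29.0 and 28.1 FPKM. The lowest mean level in the complex was that of COX7A2L, which helps to join complexes III and IV into supercomplexes, with 2.10 FPKM in sh-Control against 1.62 FPKM in sh-CRNDE. Summed over its 12 genes, complex IV stood at 708 FPKM in sh-Control against 501 FPKM in sh-CRNDE, or 70.7% of sh-Control. Without COX8A the sums were 522 and 500 FPKM, or 95.8%, so most of the difference was COX8A.

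Complex III moved at both of its catalytic nuclear subunits, in opposite directions. UQCRFS1, the Rieske iron-sulfur protein that takes electrons from ubiquinol, was at 3.49 FPKM in sh-Control against 21.1 FPKM in sh-CRNDE, a change of 2.30 that was above that of 99.3% of all listed genes. CYC1, the cytochrome c1 that receives electrons from the Rieske protein, was at 47.0 FPKM in sh-Control against 29.3 FPKM in sh-CRNDE, a change of -0.66, which was -0.39 and not past 1.5-fold once the median for genes of like GC content was taken off. UQCRFS1 was thus far below CYC1 in sh-Control and closer to it in sh-CRNDE. The pseudogene UQCRFS1P1, which the name rule leaves out, did not follow UQCRFS1, with 5.70 FPKM in sh-Control against 4.57 FPKM in sh-CRNDE. UQCR10, a small subunit that lies next to cytochrome c1 and the Rieske protein, was at 3.33 and 23.1 FPKM, a change of 2.48 and the largest rise of the 81 genes. Both genes have 2 exons, UQCRFS1 on chromosome 19 (29205320 to 29213151, minus strand) and UQCR10 on chromosome 22 (29767369 to 29770413, plus strand). The other 7 genes of the complex were not past 1.5-fold. The core proteins UQCRC1 and UQCRC2, which stand on the matrix side, were at 43.4 and 39.1 FPKM in sh-Control and at 39.4 and 42.0 FPKM in sh-CRNDE. UQCRQ was at 37.8 and 39.8 FPKM, UQCRB at 11.7 and 13.2 FPKM, and UQCR11 at 6.60 and 7.43 FPKM. UQCRH, the acidic hinge protein that assists the contact of cytochrome c1 with cytochrome c, had the highest mean level of the complex, with 119.4 and 130.0 FPKM. Its single-exon relative UQCRHL, which encodes a protein of the same length (91 residues, 96.7% of them identical), had the lowest, with 2.71 and 3.97 FPKM. The coding sequences of UQCRH and UQCRHL are 98.5% identical, so reads of UQCRH may have been counted for UQCRHL. Cytochrome c itself, CYCS, which also triggers apoptosis when it leaves mitochondria, was at 85.6 FPKM in sh-Control against 99.7 FPKM in sh-CRNDE, a change of 0.22.

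**Figure D2:**
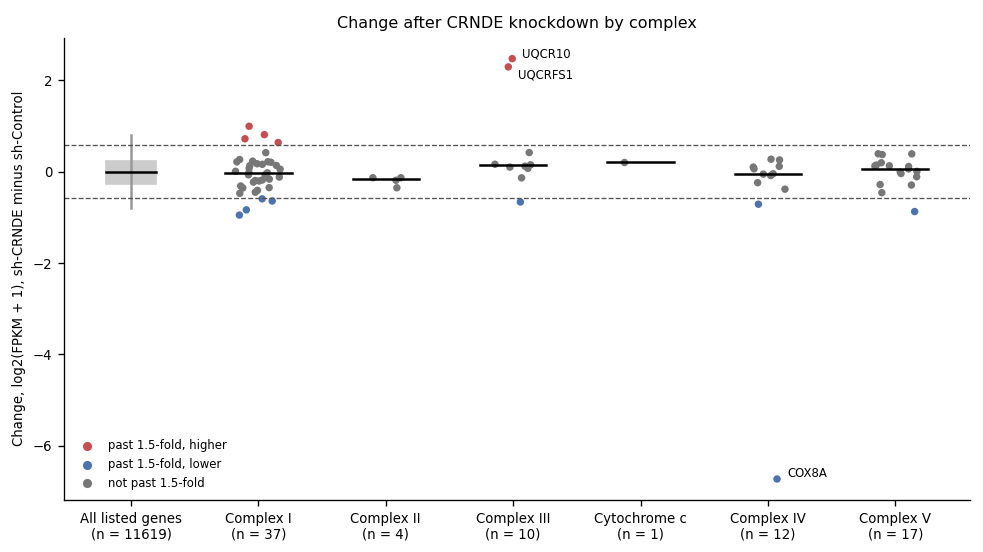
Change of each gene in log2(FPKM + 1), sh-CRNDE minus sh-Control, by complex. Points are genes coloured by whether they are past 1.5-fold (dashed lines at 0.585 in each direction), black bars are medians, and for all 11619 listed genes the grey box spans the middle 50% and the line the 5th to the 95th percentile. The medians lie between -0.16 for complex II and 0.22 for CYCS, and COX8A, UQCR10 and UQCRFS1 stand apart from their complexes.

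Complex I had 4 genes past 1.5-fold in each direction among its 37 (21.6%, against 17.2% of all listed genes). Of the 7 nuclear core subunits, which together form the path of electrons from NADH to ubiquinone, 3 were past it (42.9%). NDUFS1, the large iron-sulfur subunit of the arm that binds NADH, was at 8.10 FPKM in sh-Control against 13.2 FPKM in sh-CRNDE, a change of 0.64. NDUFS7 and NDUFS8, which carry the iron-sulfur clusters nearest to the ubiquinone site, were lower in sh-CRNDE. NDUFS8 was at 11.3 and 6.91 FPKM (change -0.64), and NDUFS7, which had the lowest mean level of the complex, was at 3.86 and 2.22 FPKM (change -0.59). None of these 3 changes stayed past 1.5-fold once the median for genes of like GC content was taken off, when they were 0.52 for NDUFS1, -0.37 for NDUFS8 and -0.21 for NDUFS7. NDUFS7 was closest to the threshold, and its change was also not past it after quantile normalization or once the median for genes of like transcript length was taken off. The flavin-binding subunit NDUFV1 was at 33.9 and 31.1 FPKM and its partner NDUFV2 at 23.1 and 24.5 FPKM, although 89.4% of the words of 50 bases in NDUFV2 also occur in other annotated genes. NDUFS3 was at 18.5 and 22.5 FPKM.

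Among the 30 accessory subunits of complex I, 3 were past 1.5-fold higher and 2 lower (16.7%, against 17.2% of all listed genes). NDUFS5, an intermembrane-space subunit with the highest mean level of the complex, was at 129.3 FPKM in sh-Control against 227.6 FPKM in sh-CRNDE, a change of 0.81. NDUFA8, which lies on the same side of the membrane, was at 26.2 and 43.8 FPKM (change 0.72). NDUFA5, which sits on the peripheral arm, was at 3.81 and 8.59 FPKM (change 0.995). On the lower side, NDUFA6, which binds the mitochondrial acyl carrier protein, was at 23.5 FPKM in sh-Control against 11.7 FPKM in sh-CRNDE (change -0.95). NDUFA3, a small membrane subunit, was at 13.1 and 6.91 FPKM (change -0.84), and an exon of it overlaps TFPT on the opposite strand, with libraries from a kit that does not mark strand. The acyl carrier protein NDUFAB1 was at 57.0 and 44.3 FPKM, a change of -0.36. The 25 accessory genes that were not past 1.5-fold had changes from -0.47 (NDUFA7, 24.4 and 17.3 FPKM) to 0.42 (NDUFA1, 51.5 and 69.1 FPKM). NDUFA7 shares 75.9% of its words of 50 bases with other annotated genes, and an exon of it overlaps RPS28 on the opposite strand. Summed over its 37 genes, complex I stood at 924 FPKM in sh-Control against 1013 FPKM in sh-CRNDE, or 109.6%. The difference of NDUFS5 alone was larger than that of this sum, and the median change of the complex was -0.02.

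All 4 genes of complex II, the succinate dehydrogenase that also serves the citrate cycle, were slightly lower in sh-CRNDE and none was past 1.5-fold. SDHA, the flavoprotein that oxidizes succinate, was at 23.3 FPKM in sh-Control against 18.03 FPKM in sh-CRNDE, a change of -0.35. SDHB, the iron-sulfur subunit, was at 33.0 and 30.01 FPKM. The membrane anchors SDHC and SDHD were at 5.72 and 4.91 FPKM and at 49.99 and 45.5 FPKM. The changes of SDHB, SDHC and SDHD were between -0.19 and -0.13, inside the middle 50% of all listed genes. SDHA shares 73.6% of its words of 50 bases with other annotated genes, and 6 pseudogenes in the annotation bear its name. The complex stood at 112.0 FPKM in sh-Control against 98.5 FPKM in sh-CRNDE, or 88.0%.

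Of the 17 ATP5 genes 1 was past 1.5-fold (5.88%, against 17.2% of all listed genes). It encodes the c subunit, the protein whose ring turns in the membrane. The genes ATP5G1, ATP5G2 and ATP5G3 encode precursors of 136, 141 and 142 residues whose last 77 residues are identical, so that they feed the same ring. Across the coding sequence for these residues, ATP5G1 and ATP5G2 share 88.3% of bases, and ATP5G3 shares 80.1% with either. The opening 60 bases of that shared stretch are shown because they tell the 3 transcripts apart, with the 18 positions at which they differ in capitals (GENCODE 44 on GRCh38, written 5′ to 3′ along the transcript). ATP5G1 lies at chr17:48892765-48895871 on the plus strand, ATP5G2 at chr12:53632726-53677408 on the minus strand and ATP5G3 at chr2:175176258-175181710 on the minus strand.
ATP5G1: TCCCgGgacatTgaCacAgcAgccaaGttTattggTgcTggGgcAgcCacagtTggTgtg
ATP5G2: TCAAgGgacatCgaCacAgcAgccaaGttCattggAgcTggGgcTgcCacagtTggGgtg
ATP5G3: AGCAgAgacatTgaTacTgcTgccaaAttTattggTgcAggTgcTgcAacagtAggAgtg

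ATP5G3 was at 38.4 FPKM in sh-Control against 20.5 FPKM in sh-CRNDE, a change of -0.87. ATP5G2 differed the other way, at 30.3 and 40.0 FPKM (change 0.39), and ATP5G1 was at 23.1 and 21.3 FPKM (change -0.11). ATP5G3 was thus the most abundant of the 3 in sh-Control and the least abundant in sh-CRNDE, there by a small margin to ATP5G1. Their sum was 91.7 FPKM in sh-Control against 81.8 FPKM in sh-CRNDE, or 89.2%, a smaller difference than that of ATP5G3 alone. ATP5B, the catalytic beta subunit, had the highest mean level of all 81 genes, with 247.5 FPKM in sh-Control against 321 FPKM in sh-CRNDE (change 0.38). The alpha subunit ATP5A1, with which it forms the catalytic head, was at 31.7 and 34.5 FPKM. In the central stalk ATP5C1 was at 51.2 and 56.1 FPKM, ATP5E at 22.8 and 26.3 FPKM, and ATP5D at 14.2 and 10.0 FPKM (change -0.46). In the peripheral stalk, which holds the head still, ATP5O was at 35.1 and 46.4 FPKM (change 0.39), ATP5F1 at 56.7 and 61.9 FPKM, ATP5J at 43.7 and 43.5 FPKM, and ATP5H at 11.7 and 11.4 FPKM. ATP5O shares 61.2% of its words of 50 bases with other annotated genes. The small membrane subunits ATP5I, ATP5J2 and ATP5L had changes from 0.01 to 0.15. ATP5S and ATP5SL are taken in by their older names but are not subunits of the synthase, and they had the lowest mean levels among the 17, ATP5S with 0.866 and 0.536 FPKM and ATP5SL with 4.54 and 3.53 FPKM. Without these 2 genes complex V stood at 728 FPKM in sh-Control against 822 FPKM in sh-CRNDE, or 113.0%. Most of that difference was ATP5B.

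The change was compared with features of the transcripts that the choice of genes did not use. The 8 lower genes had a median GC content of 56.9% (38.5% to 66.9%), the 6 higher genes 45.4% (34.6% to 50.6%) and the 67 others 46.9%. Across the 81 genes the change and GC content had a Pearson correlation of -0.26 and a Spearman correlation of -0.32, and across the 8695 listed protein-coding genes that averaged 1 FPKM or more these were -0.29 and -0.43. These correlations are a description over genes that share the same 2 libraries, and genes are not independent replicates. The 4 genes that were no longer past 1.5-fold after the subtraction for GC content were NDUFS1 at 41.8% GC, NDUFS7 at 66.9%, NDUFS8 at 63.5% and CYC1 at 61.5%. Of the 81 genes 3 have 2 exons, and these are COX8A, UQCR10 and UQCRFS1, which were past 4-fold. The only gene with 1 exon, UQCRHL, was not past 1.5-fold, and none of the 77 genes with 3 or more exons was past 4-fold. Among the protein-coding genes that averaged 1 FPKM or more, 11.9% of the 286 genes with 2 exons were past 4-fold, against 0.843% of the 8303 with 3 or more. Of the 106 such genes with 1 exon, 25.5% were past 4-fold. What exon number and GC content contributed to the changes was not tested.

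**Figure D3:**
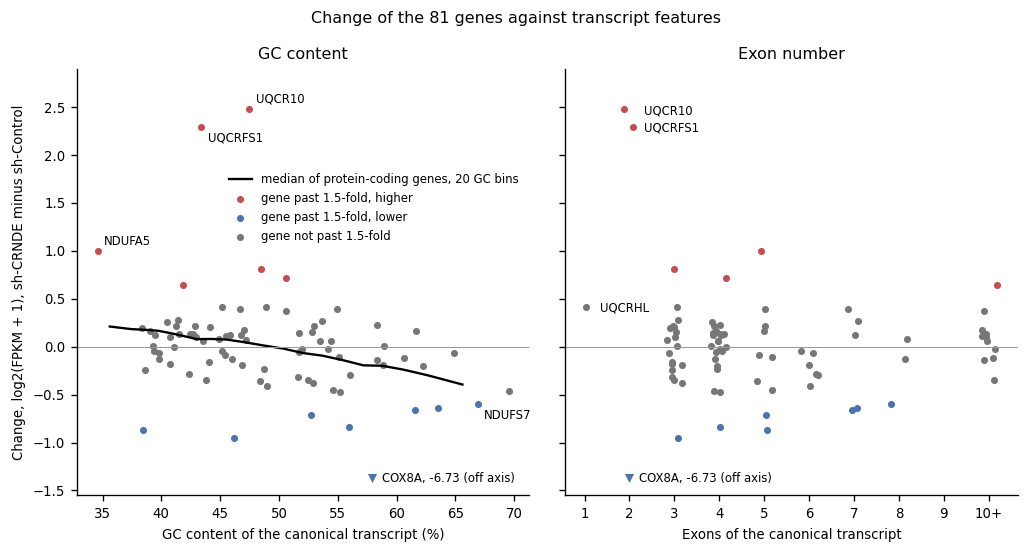
Change in log2(FPKM + 1), sh-CRNDE minus sh-Control, of the 81 genes against the GC content in percent (left) and the number of exons (right) of the canonical transcript, with genes of 10 or more exons drawn together and points spread sideways in the right panel. The line is the median of protein-coding genes that averaged 1 FPKM or more in 20 bins of GC content and falls from 0.21 to -0.39, and COX8A (-6.73) is drawn as a triangle at the lower edge because it lies off the axis.

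Nuclear genes of the respiratory chain are known targets of NRF1 and of the ETS factor GABP, and YY1 sites are also known at many of them. Of the 81 genes 65 had a RefSeq promoter. The words GCGCATGC for NRF1, CCGGAAGT for ETS factors and AAGATGGCG for YY1 were searched as exact matches on both strands. Sites that differ from these words by any letter were not counted. The NRF1 and YY1 words can share 3 letters at their ends, but matches to different words overlapped in 0 of the 65 promoters. The NRF1 word was found in 14 of the 65 (21.5%), against 6.27% of 8196 promoters of listed protein-coding genes and 3.27% of all 27305 promoters. The ETS word was found in 9 (13.8%), against 10.3% and 4.44%, and the YY1 word in 8 (12.3%), against 4.66% and 1.85%. At least 1 of the 3 words was found in 25 of the 65 promoters (38.5%), against 19.5% of the 8196 and 8.90% of all promoters. By call it was found in 2 of 5 promoters of higher genes, 3 of 6 of lower genes and 20 of 54 (37.0%) of genes not past 1.5-fold. The groups of 5 and 6 promoters are too small for their shares to be compared. In the promoters printed above, COX8A holds the ETS word in the reverse direction, beginning 19 bases before the transcription start. The other 2 hold none of the 3 words as an exact match. Whether they hold variant sites for these factors was not tested. None of the 3 factors was past 1.5-fold, with NRF1 at 3.63 FPKM in sh-Control against 3.13 FPKM in sh-CRNDE, GABPA at 7.80 and 9.22 FPKM, and YY1 at 19.5 and 17.6 FPKM.

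Of 19 regulators of respiratory genes and factors of mitochondrial DNA upkeep and transcription, 17 were listed, with 1 past 1.5-fold higher and 1 lower (11.8%, against 17.2% of all listed genes) and a median change of -0.04. TFAM, which packages mitochondrial DNA and starts its transcription, was at 12.4 FPKM in sh-Control against 23.6 FPKM in sh-CRNDE, a change of 0.88. ESRRA, a nuclear receptor that acts with PGC-1 coactivators on respiratory genes, was at 17.9 and 10.4 FPKM (change -0.72, or -0.45 after the subtraction for GC content). Of the 13 subunits encoded in the mitochondrial genome 3 were listed, and the other 10 were not analysed here. MT-CYB and MT-ND5 were listed at 0 in sh-Control and at 8.92 and 8.46 FPKM in sh-CRNDE, so no fold is given. The mitochondrial ribosomal RNA genes went the same way. MT-RNR2 was at 0 and 27614 FPKM, which was 16.2% of all FPKM summed in sh-CRNDE, and MT-RNR1 was at 0 and 59.3 FPKM. After the rescaling without mitochondrially encoded, ribosomal and small RNA genes, the 46 named genes followed kept direction and side of 1.5-fold. Any other part of the ribosomal RNA genes in the levels of the other genes was not tested. MT-ND6 was at 113.7 and 61.2 FPKM, a change of -0.88. The listed levels of MT-CYB, MT-ND5 and MT-ND6 thus ran in different directions, and each has 1 exon. For the mitochondrial genes listed at 0, the deposited values do not tell a difference in RNA from an estimate that failed in 1 library.

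Of 54 assembly factors of the 5 complexes 52 were listed, and 7 were past 1.5-fold higher and 4 lower (21.2%, against 17.2% of all listed genes), with a median change of 0.07. For complex I, 3 of 17 were past it higher and 1 lower (23.5%). NDUFAF8 was at 5.74 FPKM in sh-Control against 14.9 FPKM in sh-CRNDE (change 1.24), while NDUFAF3, which acts early in building the arm next to the membrane, was at 10.0 and 4.61 FPKM (change -0.97). NDUFAF2 was at 19.8 and 30.8 FPKM and NDUFAF4 at 10.3 and 16.4 FPKM, each with a change of 0.62 that was not past 1.5-fold after the subtraction for GC content (0.54 and 0.41). For complex II 1 of 4 was past 1.5-fold, SDHAF4, which helps SDHA to mature, with 4.35 and 2.34 FPKM (change -0.68).

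For complex III 1 of 6 assembly factors was past 1.5-fold (16.7%, against 17.2% of all listed genes). LYRM7, which binds the Rieske protein in the matrix before it is inserted, was at 0.746 FPKM in sh-Control against 10.6 FPKM in sh-CRNDE, a change of 2.73. LYRM7 and UQCRFS1 were thus both higher in sh-CRNDE. BCS1L, which moves the Rieske protein across the membrane, was at 7.22 and 6.95 FPKM. TTC19, which clears fragments of the Rieske protein, was at 9.05 and 9.86 FPKM. Unlike UQCRFS1, LYRM7 has 5 exons.

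For complex IV 21 of 23 assembly factors were listed, with 3 past 1.5-fold higher and 1 lower (19.0%, against 17.2% of all listed genes). COA4 was at 3.81 FPKM in sh-Control against 18.8 FPKM in sh-CRNDE (change 2.04). COX10, which makes heme O for the enzyme, was at 3.82 and 9.18 FPKM (change 1.08), and TACO1, a translational activator of MT-CO1, was at 5.31 and 8.68 FPKM (change 0.62). COX14, which acts when MT-CO1 is made, was at 9.42 and 1.82 FPKM (change -1.88). COA4 and COX14 have 2 exons. For complex V 1 of 4 was past 1.5-fold, FMC1, with 4.01 and 2.31 FPKM (change -0.60), and it was not past it after quantile normalization or after the subtraction for transcript length.

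**Figure D4:**
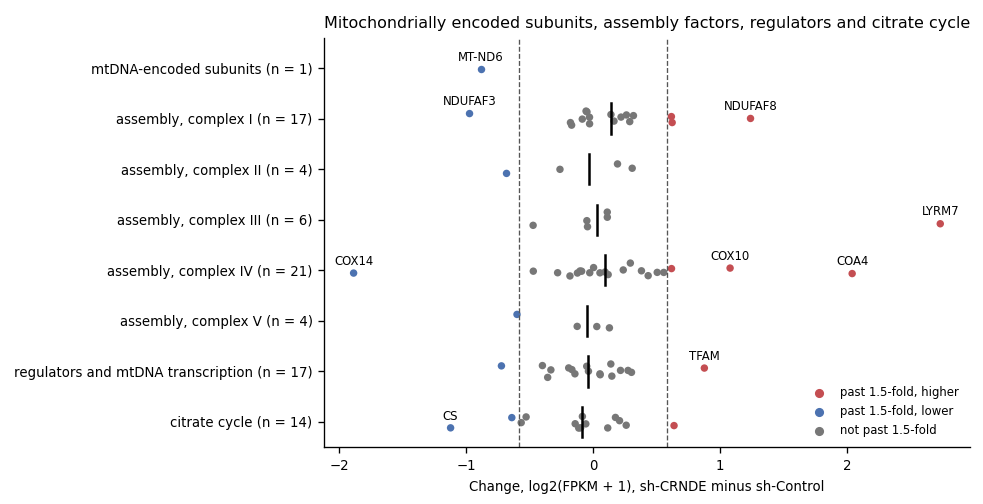
Change in log2(FPKM + 1), sh-CRNDE minus sh-Control, of the mitochondrially encoded subunits, the assembly factors, the regulators and the citrate cycle genes. Points are genes, black bars are medians, dashed lines mark 1.5-fold, the genes farthest out are named, and MT-CYB and MT-ND5 are left out because they are listed at 0 in sh-Control. Most points lie between the dashed lines, with LYRM7 at 2.73 and COX14 at -1.88 as the farthest.

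Of the 14 citrate cycle genes, which supply the NADH and succinate that complexes I and II use, 1 was past 1.5-fold higher and 2 lower (21.4%, against 17.2% of all listed genes), with a median change of -0.09. CS, the citrate synthase that starts the cycle, was at 51.1 FPKM in sh-Control against 23.0 FPKM in sh-CRNDE, a change of -1.12. IDH3A, the catalytic subunit of the NAD-dependent isocitrate dehydrogenase, was at 17.4 and 10.8 FPKM (change -0.64). SUCLA2, a subunit of succinate-CoA ligase, was at 15.9 and 25.3 FPKM (change 0.64, or 0.46 after the subtraction for GC content). MDH2 and FH, later in the cycle, were at 94.7 and 88.4 FPKM and at 51.3 and 59.5 FPKM.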

How the data were processed

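Total RNA of NB4 cells, 1 library with sh-CRNDE and 1 with sh-Control, was prepared with the TruSeq RNA kit v2 and sequenced on an Illumina MiSeq. The authors deposited FPKM values per gene, and the submitters' processing notes name fastp 0.20.0, HISAT2 2.0.4, StringTie 1.2.3 and GRCh38. The annotation release is not given in the sources used here. Every listed gene reaches at least 0.5 FPKM in a library. Read counts cannot be recovered from FPKM, and the lowest values fall on no common step, so depth is unknown and no counting interval can be given.

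Changes were computed as log2(FPKM + 1) in sh-CRNDE minus sh-Control for all 11619 genes, and 1.5-fold was used as threshold, with no test. Samples were grouped by their labels. The genes and lists were chosen with earlier results of these data known. Named are genes past 1.5-fold, the highest and lowest mean level per complex, complex II, CYCS, the core subunits of complex I, genes encoding near-identical proteins, and members of the other lists past 1.5-fold. Other genes were named after their values were seen. List genes were matched by Ensembl identifier. Exons, GC content and length are those of the canonical GENCODE 44 transcript (11508 genes matched). Alternatives were other pseudocounts, scalings, thresholds, filters and corrections for GC content and length, and computations were tested on simulated data. Python 3.11.15, numpy 2.4.6, pandas 2.3.3, biopython 1.88 and matplotlib 3.10.9 were used. The values of 1 complex I gene are not reported here.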

Additional observations from a re-analysis of the deposited data

How the results depend on the processing

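Counts of the 81 genes and their median change were recomputed under 13 alternatives. With a threshold of 2-fold, 2 genes were past it higher and 1 lower, 3 in all, against 6.66% of all listed genes. With the median for genes of like GC content taken off, 5 genes were past 1.5-fold higher and 5 lower (12.3%), against 14.7% of all genes. Under the other alternatives 4 to 6 genes were higher and 6 to 9 lower, and the median change lay between -0.01 and 0.06. Without the 22 genes that share sequence or exons with another gene, an alternative chosen after seeing the data, 6 of 59 were higher and 6 lower. That was 20.3%, against 17.2% of all listed genes, which were not filtered in this way. Of 322 values of 46 named genes, 310 kept direction and side of 1.5-fold, 12 lost it (8 under the GC subtraction, 4 for NDUFS7 and FMC1) and 0 reversed. The cause was not tested. With 1 library per group no replicate could be left out. No paired analysis was possible because each group holds 1 library and the labels carry no replicate numbers. The unknown depth leaves the counting error of low levels, such as 0.769 FPKM for COX8A in sh-CRNDE, open.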

Other observations

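Of the 3 pseudogenes that the name rule leaves out, UQCRFS1P1 is reported above. COX6A1P2 was at 1.69 FPKM in sh-Control and listed at 0 in sh-CRNDE, and COX5BP6 was at 0.557 FPKM in sh-CRNDE and listed at 0 in sh-Control.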
